A study of Homo sapiens with 24 samples.

Results

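The iron regulation genes followed here are 9 genes, picked by symbol from the 58381 gene IDs of the table: FBXL5, IREB2, ACO1, TFRC, FTH1, FTL, SLC40A1, SLC11A2 and NCOA4. Of these, 8 reached the filter of a mean of 0.5 FPKM over the 24 libraries and were tested among 14228 genes, and SLC40A1 did not reach it. FPKM counts sequenced fragments per transcript length and library size, so levels of different genes can be set side by side per length.

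Cells balance iron mainly after transcription. The iron regulatory proteins IRP1 (gene ACO1) and IRP2 (gene IREB2) bind a hairpin, the iron-responsive element, in messages when iron is short. Bound to a 5′ UTR element, as in ferritin, they block translation, and bound to the 3′ UTR elements of the transferrin receptor they protect the message from decay. FBXL5 is the iron-sensing subunit of an SCF ubiquitin ligase that marks IRP2 for degradation when iron is plentiful. NCOA4 carries ferritin to lysosomes, where its iron is released. In keratinocytes, iron not held in ferritin can feed oxidative damage, which makes ferritin one of the cell's antioxidant stores.

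The samples were HaCaT cells, an immortalised non-malignant human keratinocyte line. Clonal lines, 3 of each, carried either an empty vector or a construct that overexpresses hsa-miR-186. Each kind was grown with 0 or 100 nM inorganic arsenic (iAs) and sampled at weeks 12 and 29, giving 8 groups of 3 libraries. All 24 libraries were made from polyadenylated RNA, which does not carry the mature microRNA, so the overexpression itself was not measured here. The labels call the samples of a group biological triplicates without tying a replicate number to a clone. The p-values therefore measure the spread between these libraries, and clones recur at both doses and both weeks. The study asked how miR-186 overexpression changes messages during arsenic-driven transformation of skin cells.

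The FPKM of a library summed to between 712797 and 905683, with 13803 to 14588 genes at 0.5 FPKM or above. Read counts were not used here, so the depth behind each value is unknown. No pair of libraries held identical values. All 10 keratinocyte markers were detected, with TP63 at 49.2 to 88.6 FPKM and KRT5 at 359.5 to 1866 FPKM. Of the other cell types, 3 of 7 fibroblast, 1 of 6 melanocyte, 0 of 6 immune, 1 of 5 endothelial and 0 of 5 erythroid markers had a mean of at least 0.5 FPKM. Their summed levels ran from 1.75 to 95.6, 0.819 to 2.37, 0.287 to 1.20, 4.04 to 20.9 and 0 to 0.144 FPKM. TYR and HBA1 were at 0 in all libraries, and COL1A2 did not exceed 0.00571 FPKM. Other markers of these lists were present: the fibroblast markers DCN and LUM reached 78.0 and 17.2 FPKM. The endothelial marker CDH5 ran from 3.67 to 20.65 FPKM. In bulk RNA, fewer cells with a message and less message per cell cannot be told apart.

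The iron-responsive elements are shown first, because they are what ties the ferritins, ferroportin and the transferrin receptor to the 2 IRPs. Annotated UTRs (GENCODE release 29, GRCh38) were searched on the transcript strand for a C, 5 bases, CAGTGN and 5 bases that pair fully with the first 5, G with T allowed. Capitals mark the bulged C and the loop CAGTGN. The letters A to D give only the order of the TFRC matches along the message, and are not published element names. The pattern was found in 31 of 18763 genes with a 5′ UTR (0.165%) and in 128 of 19070 with a 3′ UTR (0.671%).
FTH1 5′ UTR, chr11:61967574-61967602, minus strand: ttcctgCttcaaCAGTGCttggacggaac
FTL 5′ UTR, chr19:48965335-48965363, plus strand: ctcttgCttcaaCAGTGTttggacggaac
SLC40A1 5′ UTR, chr2:189580661-189580689, minus strand: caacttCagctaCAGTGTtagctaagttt
TFRC 3′ UTR, element A, chr3:196050979-196051007, minus strand: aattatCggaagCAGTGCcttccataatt
TFRC 3′ UTR, element B, chr3:196050575-196050603, minus strand: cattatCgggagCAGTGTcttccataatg
TFRC 3′ UTR, element C, chr3:196050510-196050538, minus strand: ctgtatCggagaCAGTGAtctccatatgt
TFRC 3′ UTR, element D, chr3:196050463-196050491, minus strand: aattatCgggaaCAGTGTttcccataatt
The FTH1 element lay in 5 of 6 annotated protein-coding transcripts, the FTL and SLC40A1 elements in the 1 transcript of each, and the 4 TFRC elements in all 3. These 4 genes were the members with a match. FBXL5, IREB2, ACO1, SLC11A2 and NCOA4 held none in their annotated UTRs, which says only that these letters are not there. An element with a loop other than CAGTGN, or whose stem does not pair fully, is missed by this search, in these genes and in TFRC.

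Levels of the members spanned a wide range. FTH1, the ferritin heavy chain, averaged 10628 FPKM over the 24 libraries and ranked 5 among all genes. FTL, the ferritin light chain, averaged 617 FPKM. TFRC, the transferrin receptor that takes up iron-loaded transferrin, averaged 138 FPKM, and NCOA4 averaged 98.3 FPKM. SLC11A2, the divalent metal transporter DMT1, averaged 41.1 FPKM. IREB2 averaged 29.6 FPKM, FBXL5 16.99 FPKM and ACO1 2.68 FPKM. The IREB2 message exceeded the ACO1 message in every library, by 5.68-fold to 22.4-fold.

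FBXL5 was lower under iAs in both constructs and at both weeks, and it was the member with the largest averaged difference between doses and the smallest p-value. Averaged over constructs and weeks it fell by 0.60 ± 0.10 (SE) on the log2(FPKM + 0.5) scale, a 1.51-fold reduction with a 95% confidence interval of -0.81 to -0.39. Its adjusted p was 0.0142 in limma, with Benjamini-Hochberg adjustment over all genes tested. By p-value it ranked 4 among the 14228 genes, and 64 other genes (0.45%) had a change at least as negative. TFRC and NCOA4 also fell on average, by 0.34 ± 0.10 (adjusted p = 0.0388 in limma) and 0.32 ± 0.08 (adjusted p = 0.0287). The other 5 members did not pass. With 3 of 8 members called lower, all genes tested gave 4.67% called lower and 2.9% called higher (7.58% in either direction). The averaged test treats libraries of a clone at different doses and weeks as independent, which the labels do not settle.

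FBXL5 (ENSG00000118564, GRCh38 chr4:15604539-15681679, minus strand) stood at 21.3, 24.6 and 21.5 FPKM in vector clones without iAs at week 12, and at 12.4, 15.3 and 13.3 FPKM with 100 nM. Those groups did not overlap. In miR-186 clones at week 12 it stood at 19.1, 15.3 and 20.1 FPKM without iAs and at 14.6, 8.63 and 16.6 FPKM with it, where the highest treated library passed the lowest untreated one. At week 29 the vector clones gave 22.0, 21.9 and 23.99 FPKM without iAs and 12.1, 10.8 and 16.8 FPKM with it. The miR-186 clones gave 17.6, 17.4 and 21.4 FPKM without iAs and 14.1, 11.7 and 15.3 FPKM with it. Neither week 29 pair overlapped, and FBXL5 was lower with iAs in 12 of 12 same-numbered pairs of libraries. Where groups do not overlap, any numbering gives lower treated values, so this count largely repeats the overlap. The share over all genes is not given here, for this count or for those of other members below.

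The FBXL5 means of the 4 treated groups were close together, from 13.2 ± 3.12 to 13.7 ± 1.88 FPKM (SD, n = 3). The untreated means were 22.5 ± 1.87 and 22.6 ± 1.18 FPKM in vector clones and 18.2 ± 2.52 and 18.8 ± 2.24 FPKM in miR-186 clones. In the order of the 8 group means, each group overlapped the next. FBXL5 shares 18 exon bases, 0.39% of its own, with FAM200B on the opposite strand, which stood at 15.5 to 31.4 FPKM.

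**Figure D1:**
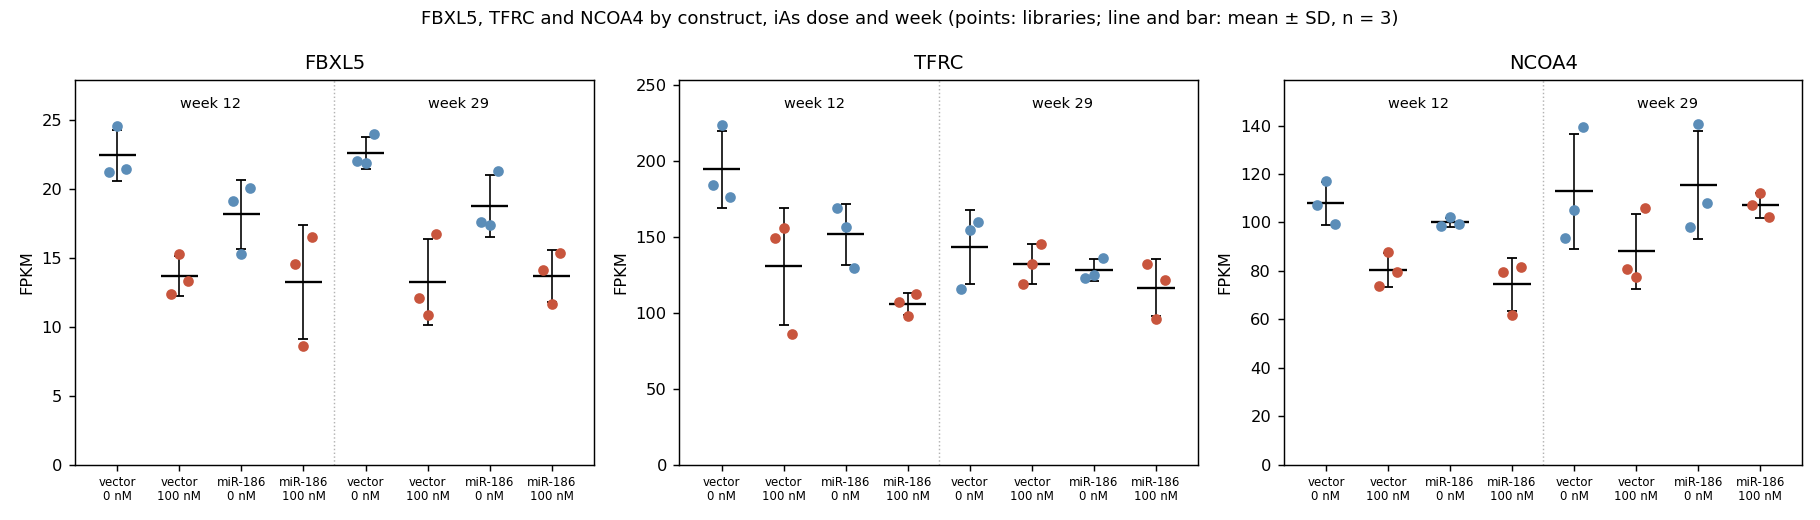
FPKM of FBXL5, TFRC and NCOA4 in each library (points), by construct, iAs dose and week, with the mean and SD of 3 libraries per group. The treated groups (red) of FBXL5 sit between 8.63 and 16.8 FPKM, and the untreated groups (blue) between 15.3 and 24.6 FPKM.

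Taken one at a time, the 4 iAs comparisons gave FBXL5 log2 changes of -0.70 ± 0.20 in vector clones and -0.48 ± 0.20 in miR-186 clones at week 12. At week 29 they were -0.77 ± 0.20 and -0.44 ± 0.20. None passed the threshold after adjustment in limma, with adjusted p of 0.0583, 0.4, 1 and 0.999 in that order. In vector clones at week 12, 0 of 8 members and 1.38% of all genes were called. In the other 3 comparisons limma called 0% of genes, against 1558, 555 and 312 genes (11%, 3.9% and 2.19%) at an unadjusted p under 0.05. FBXL5 had an unadjusted p of 0.00215, 0.0249, 0.000886 and 0.0374 in the 4 comparisons. In vector clones at week 29 FBXL5 and NCOA4 were the 2 of 8 members under 0.05, beside that 3.9% of all genes.

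**Figure D2:**
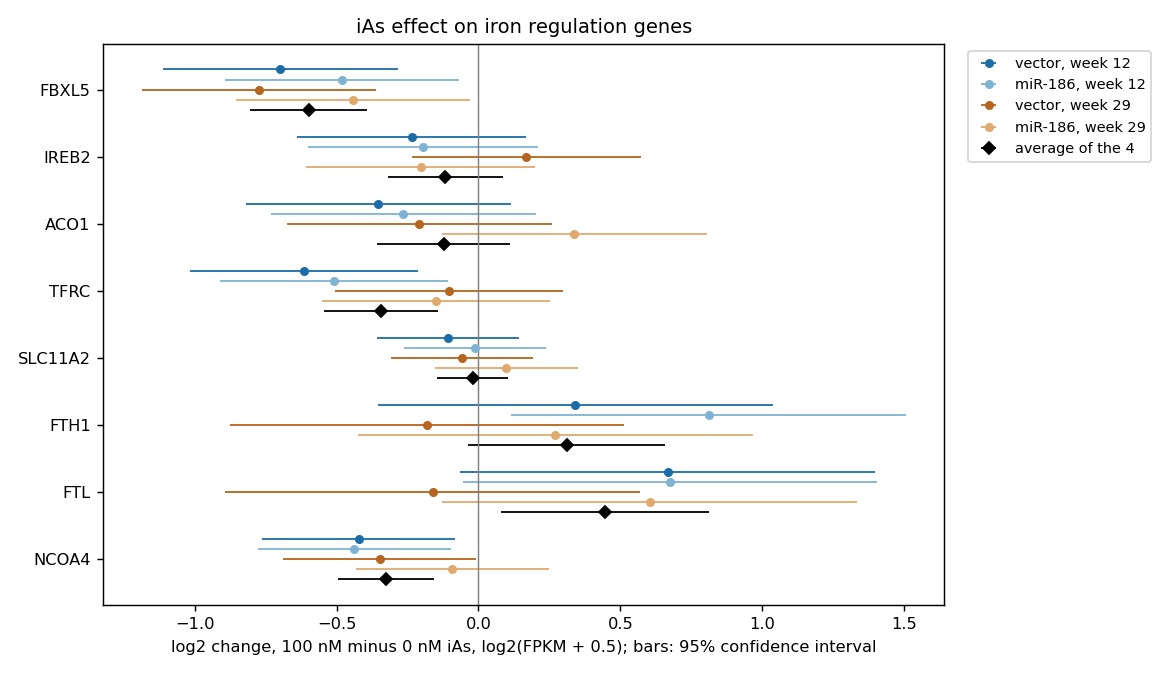
Log2 change with 100 nM iAs against 0 nM for the 8 members tested, in each construct and week and averaged over the 4 (diamonds), with 95% confidence intervals. Every FBXL5 interval lies below 0, while the averaged intervals of IREB2, ACO1, FTH1 and SLC11A2 include 0.

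Libraries also differed in how levels depended on the GC content of genes, and this moved with dose at week 12. The slope of log2 level per 10 percentage points of GC averaged -0.146 in untreated and 0.290 in treated vector clones at week 12, with no overlap. It averaged 0.045 and 0.227 in miR-186 clones at week 12, -0.044 and 0.044 in vector clones at week 29, and -0.272 and -0.143 in miR-186 clones at week 29. FBXL5, TFRC and NCOA4 have a GC content of 40.5%, 41.5% and 43.1%, below the median of 47.9% over genes tested, and FTL has 56.3%. With a GC correction of each library, FBXL5 fell by 0.45 ± 0.07 on average (adjusted p = 0.0290 in limma) and ranked 2 of 14208 genes by p-value. TFRC and NCOA4 then stood at -0.21 ± 0.09 (adjusted p = 0.206) and -0.21 ± 0.06 (adjusted p = 0.0902), and neither passed. The corrected FBXL5 change was -0.39 ± 0.14 in vector and -0.32 ± 0.14 in miR-186 clones at week 12. At week 29 it was -0.75 ± 0.14 and -0.34 ± 0.14.

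The averaged FBXL5 call also held without each of the 24 libraries in turn, with changes from -0.64 to -0.53. TFRC passed in 11 of these 24 fits and NCOA4 in 18 of 24. NCOA4 missed the threshold, and TFRC with it, without vector 0 nM week 12 replicate 2, miR-186 100 nM week 12 replicate 2, vector 0 nM week 29 replicate 3, vector 100 nM week 29 replicates 1 or 2, or miR-186 0 nM week 29 replicate 2. Their adjusted p in those 6 limma fits ran from 0.0514 to 0.0824. TFRC alone also missed it without vector 0 nM week 12 replicate 1, miR-186 0 nM week 12 replicates 1 or 2, vector 0 nM week 29 replicate 2, miR-186 0 nM week 29 replicate 3, or miR-186 100 nM week 29 replicates 2 or 3, with an adjusted p of 0.0511 to 0.0658. Without the filter on low values TFRC and NCOA4 had an adjusted p of 0.0879 and 0.0646 in limma, and FBXL5 0.0334.

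**Figure D3:**
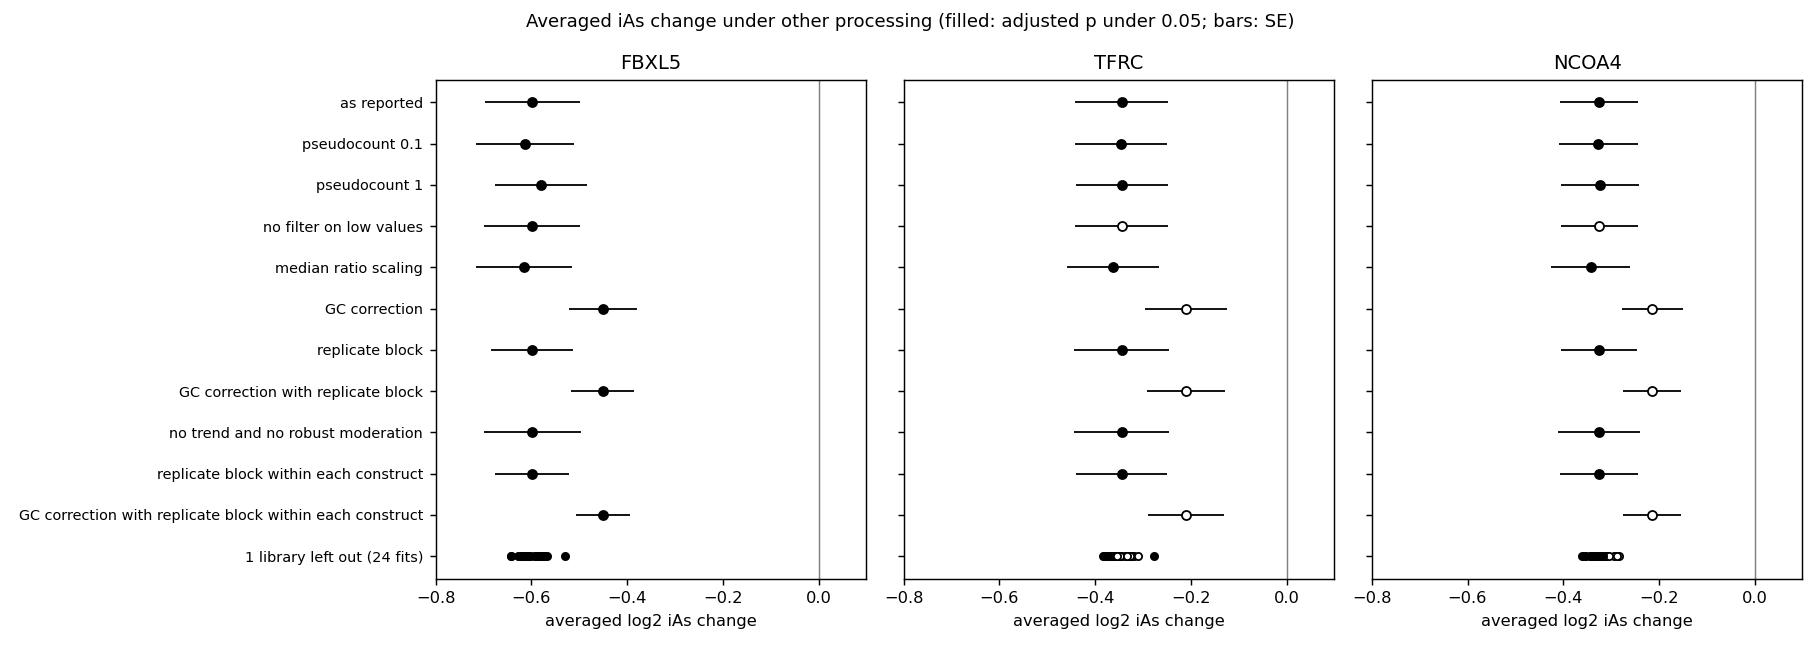
Averaged log2 iAs change of FBXL5, TFRC and NCOA4 under each processing alternative (rows; bars are SE), filled where the adjusted p is under 0.05, with the 24 fits that leave out 1 library in the last row. FBXL5 is filled in every row, and TFRC and NCOA4 are open without the filter and with a GC correction.

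The IRP messages did not pass in any iAs comparison. IREB2 (ENSG00000136381, chr15:78437431-78501456, plus strand), the protein of which FBXL5 marks for degradation, had an averaged iAs change of -0.12 ± 0.10 (adjusted p = 0.431 in limma), with an interval of -0.32 to 0.09. It ranged from 34.1, 40.3 and 28.4 FPKM in untreated vector clones at week 12 to 24.8, 22.1 and 30.7 FPKM in treated miR-186 clones at week 12. Every group of IREB2 overlapped the next in the order of means. ACO1 (ENSG00000122729, chr9:32384603-32454769, plus strand), whose protein is cytosolic aconitase when it holds an iron-sulfur cluster and IRP1 when it does not, had an averaged change of -0.12 ± 0.11 (adjusted p = 0.475). Its level was low, and changes on this scale understate those of low genes.

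ACO1 stood highest in treated miR-186 clones at week 29, at 3.48, 4.05 and 4.23 FPKM. Untreated miR-186 clones at that week gave 2.99, 3.27 and 2.73 FPKM, and treated vector clones gave 3.05, 2.12 and 1.73 FPKM. The treated miR-186 libraries overlapped neither group. Between doses, 2.21% of all genes were higher without overlap in miR-186 clones at week 29. The change against treated vector clones was 0.68 ± 0.22, with an adjusted p of 0.151 in limma, and it did not pass. In this comparison 0 of 8 members and 0.864% of all genes were called. The 1 member higher without overlap stands beside 8.61% of all genes.

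The ratio of FBXL5 to IREB2 within a library sets the ligase subunit against the message of its target. In vector clones at week 12 it lay between 0.610 and 0.756 without iAs and between 0.442 and 0.506 with it. At week 29 it lay between 0.711 and 1.01 without iAs and between 0.367 and 0.475 with it. Neither pair of groups overlapped. FBXL5 alone did not overlap there either, so this separation is not a second result apart from FBXL5. In miR-186 clones the ratios were 0.541 to 0.683 against 0.391 to 0.588 at week 12 and 0.545 to 0.601 against 0.393 to 0.585 at week 29, with overlap at both weeks. These are ratios of messages and give no measure of protein.

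**Figure D4:**
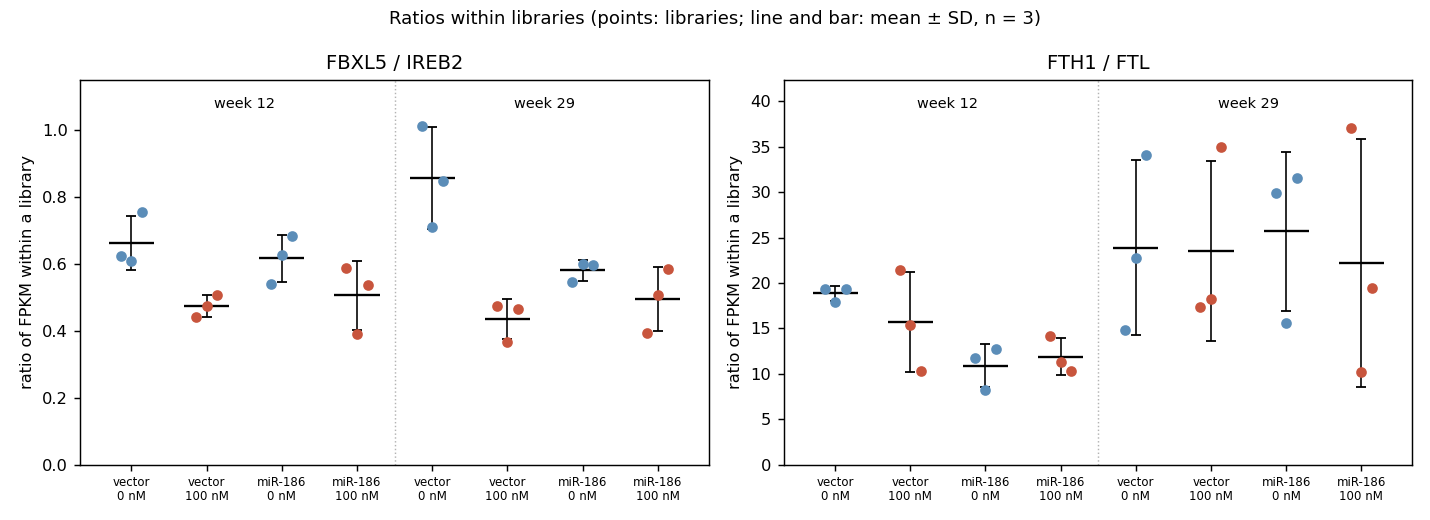
Ratio of FBXL5 to IREB2 (left) and of FTH1 to FTL (right) within each library (points), with the mean and SD of 3 libraries per group. The FBXL5 to IREB2 ratio runs from 0.367 to 1.01, with vector clones separated by dose at both weeks, and the FTH1 to FTL ratio runs from 8.26 to 37.1 with the widest spread at week 29.

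TFRC (ENSG00000072274, chr3:196027183-196082189, minus strand) carries the 4 elements shown above. At week 12 it stood at 185, 224 and 176 FPKM in untreated and 149.7, 156 and 86.3 FPKM in treated vector clones. The miR-186 clones gave 169, 157 and 129.7 FPKM without iAs and 107, 98.0 and 113 FPKM with it. Neither week 12 pair overlapped. At week 29 the levels were 116, 154 and 160.1 against 119, 132 and 145 FPKM in vector clones and 123, 125 and 136 against 132, 95.8 and 122 FPKM in miR-186 clones. Both week 29 pairs overlapped.

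The TFRC changes were -0.62 ± 0.19 and -0.51 ± 0.19 at week 12 (adjusted p = 0.0665 and 0.36 in limma), and -0.10 ± 0.19 and -0.15 ± 0.19 at week 29. The difference between the weeks was 0.51 ± 0.27 in vector clones (interval -0.06 to 1.08, adjusted p = 0.656) and 0.36 ± 0.27 in miR-186 clones (adjusted p = 1), so the effects at the 2 weeks were not shown to differ. TFRC was lower with iAs in 10 of 12 same-numbered pairs. The untreated vector group at week 12 was the highest of the 8 and did not overlap the next.

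NCOA4 (ENSG00000266412, chr10:46005088-46030714, minus strand) stood at 107, 117 and 99.5 FPKM in untreated and 73.8, 87.8 and 79.5 FPKM in treated vector clones at week 12. In miR-186 clones at that week it stood at 98.7, 102 and 99.6 against 79.6, 61.8 and 81.8 FPKM. Neither week 12 pair overlapped. At week 29 the vector clones gave 93.8, 105 and 139.6 against 80.8, 77.7 and 106 FPKM, and the miR-186 clones 98.0, 141 and 108 against 107, 112 and 102 FPKM. Both overlapped. The 4 changes were -0.42 ± 0.16, -0.44 ± 0.16, -0.35 ± 0.16 and -0.09 ± 0.16, with adjusted p of 0.103, 0.359, 1 and 0.999 in limma. NCOA4 was lower with iAs in 11 of 12 same-numbered pairs.

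The members that did not overlap between doses have to be read against all genes. In vector clones at week 12, FBXL5, TFRC and NCOA4 were lower and FTL was higher without overlap, where 17.7% of all genes were lower and 19.5% higher in that way. The same 3 members had an unadjusted p under 0.05 there, where 29.3% of all genes did, and 3 of 8 is not far from that background. At that week in miR-186 clones, 3 of 8 members were lower and 1 higher at an unadjusted p under 0.05 in limma. Of all genes, 11% reached that in either direction. In miR-186 clones at week 12, TFRC and NCOA4 were lower without overlap (8.16% of all genes). At week 29 the 1 member lower without overlap was FBXL5 in both constructs, where 4.34% of all genes were lower in this way in vector and 3.4% in miR-186 clones. The median change of the 8 members was -0.29, -0.23, -0.17 and 0.00 in vector and miR-186 clones at week 12 and vector and miR-186 clones at week 29. Over all genes the medians were 0.00, 0.02, 0.03 and -0.01.

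The ferritins had the widest spread between libraries of single groups. FTH1 (ENSG00000167996, chr11:61959718-61967660, minus strand) forms the shell's ferroxidase site. At week 12 it stood at 9253, 7222 and 9967 FPKM in untreated and 13287, 8817 and 11568 FPKM in treated vector clones. The miR-186 clones gave 4865, 4001 and 10539 FPKM without iAs and 15305, 8241 and 8784 FPKM with it. At week 29 the levels were 11306, 11633 and 14184 against 9369, 11979 and 11400 FPKM in vector clones and 14929, 6155 and 13299.9 against 15210.2, 11760.3 and 11986 FPKM in miR-186 clones. All 4 pairs overlapped.

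The FTH1 iAs changes were 0.34 ± 0.33, 0.81 ± 0.33, -0.18 ± 0.33 and 0.27 ± 0.33 in the order used above, and none passed. The average was 0.31 ± 0.17 with an interval of -0.04 to 0.66 (adjusted p = 0.213 in limma). In the order of group means, every neighbouring pair of groups overlapped for FTH1, as it did for FTL, SLC11A2 and NCOA4.

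FTL (ENSG00000087086, chr19:48965301-48966878, plus strand) stood at 477, 404 and 516 FPKM in untreated and 621, 572 and 1120.2 FPKM in treated vector clones at week 12, with no overlap. The miR-186 clones at week 12 gave 415, 485 and 827 against 1081, 733 and 856 FPKM, with overlap. At week 29 vector clones gave 760.4, 512 and 416 against 540.1, 657 and 326 FPKM. The miR-186 clones gave 499, 395 and 422 against 410.0, 1152 and 618 FPKM, where 1 treated library was the highest of all 24. The changes were 0.67 ± 0.35, 0.68 ± 0.35, -0.16 ± 0.35 and 0.60 ± 0.35, and none passed.

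Averaged, FTL changed by 0.45 ± 0.17 (adjusted p = 0.0994 in limma), which did not pass. It passed without vector 100 nM week 29 replicate 3 (0.52, adjusted p = 0.0390) or miR-186 100 nM week 29 replicate 1 (0.53, adjusted p = 0.0428). With the GC correction the value was 0.26 ± 0.15 (adjusted p = 0.377). FTL was lower with iAs in 3 of 12 same-numbered pairs and FTH1 in 4 of 12.

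The FTH1 to FTL ratio ran from 8.26 to 37.1 over the 24 libraries with a median of 17.6. The TFRC message was 0.699% to 3.91% of the FTH1 message. Processed copies of the ferritin genes can take reads from their parents. Of 25 FTH1 pseudogenes in the table, 6 averaged at least 0.5 FPKM, and the sum of all 25 was 0.178% to 0.274% of FTH1. The highest were FTH1P10 at a mean of 10.4 FPKM, FTH1P2 at 3.42 FPKM and FTH1P20 at 2.95 FPKM. For FTL, 1 of 16 pseudogenes averaged at least 0.5 FPKM, and the sum of all 16 was 0.0229% to 0.297% of FTL. How reads shared by these copies were assigned is not given in the sources used here. FTH1 also shares 1267 exon bases, 62.4% of its own, with BEST1 on the opposite strand, which stood at 1.01 to 3.39 FPKM.

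**Figure D5:**
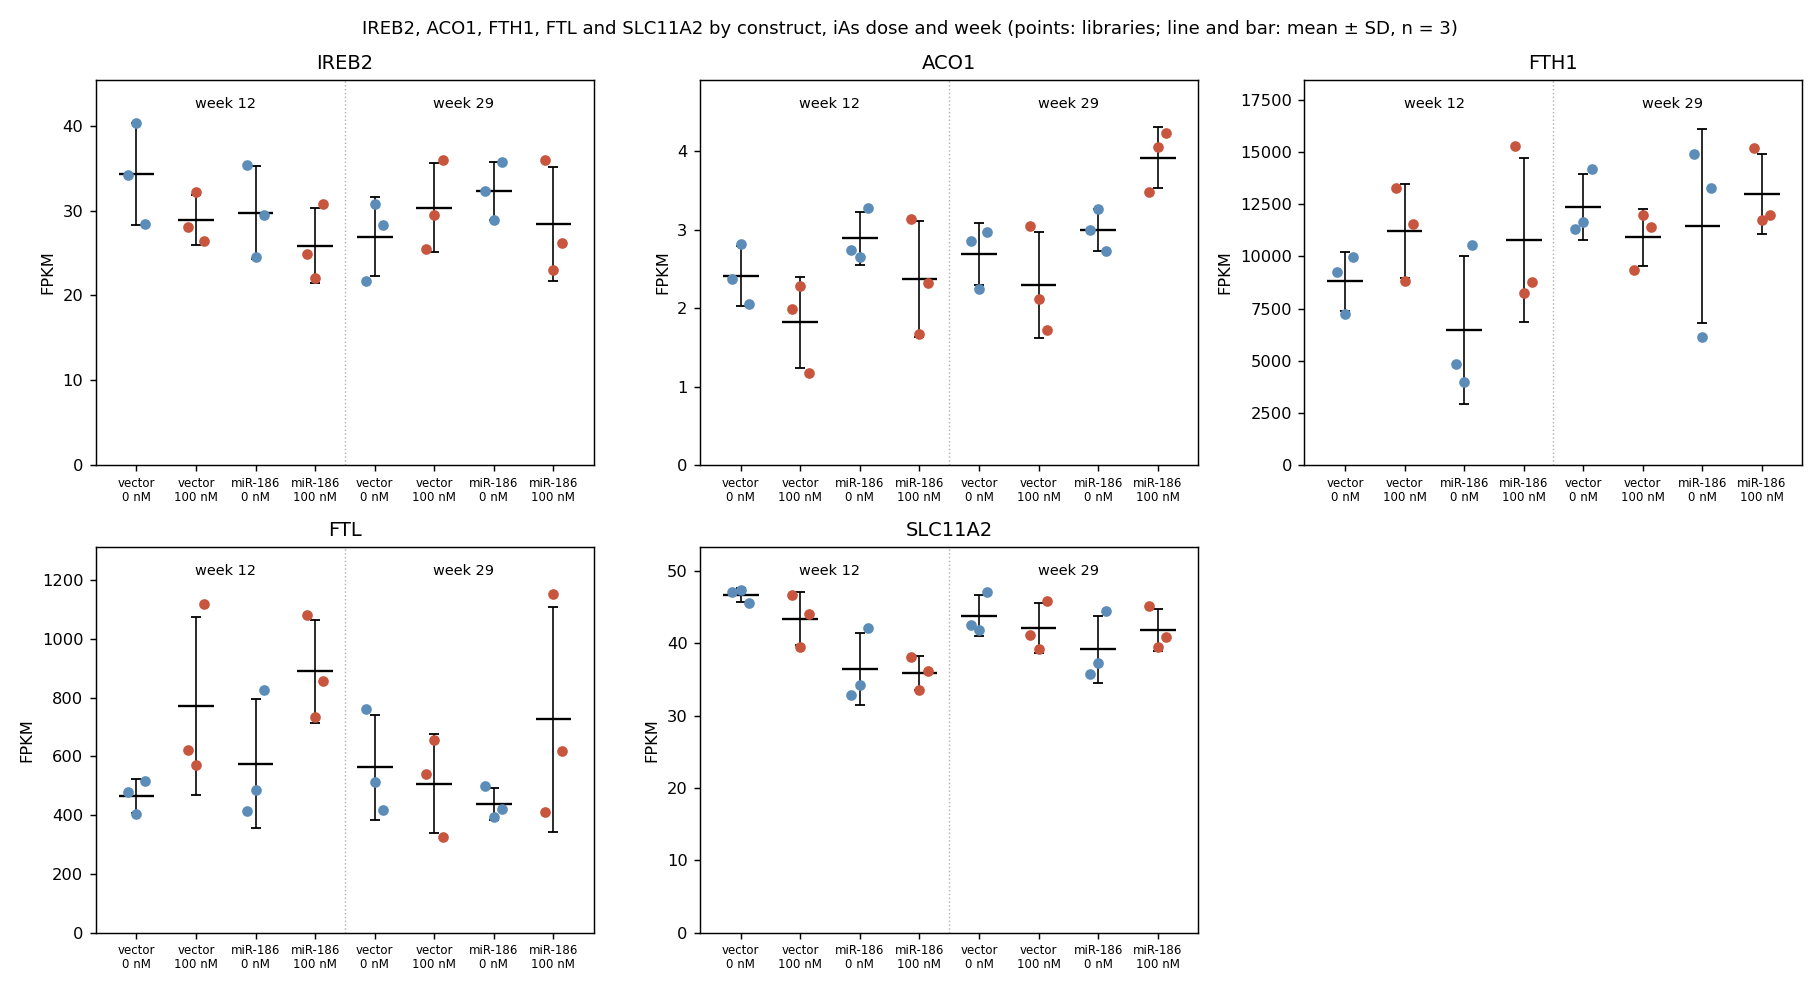
FPKM of the other members tested in each library (points), by construct, iAs dose and week, with the mean and SD of 3 libraries per group. ACO1 is highest in treated miR-186 clones at week 29, SLC11A2 stays between 32.9 and 47.4 FPKM, and the ferritins FTH1 and FTL vary most within groups.

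SLC11A2 (ENSG00000110911, chr12:50979401-51028566, minus strand) was the member closest to constant, with 32.9 to 47.4 FPKM over all libraries. Averaged, iAs changed it by -0.02 ± 0.06 with an interval of -0.15 to 0.11 (adjusted p = 0.851 in limma). Untreated vector clones at week 12 gave 47.1, 47.4 and 45.6 FPKM and untreated miR-186 clones 32.9, 34.2 and 42.1 FPKM, with no overlap. That change was -0.36 ± 0.12 (adjusted p = 0.0995 in limma), and it was -0.27 ± 0.12 with iAs at week 12 (adjusted p = 0.307). At week 29 it was -0.17 ± 0.12 without and -0.01 ± 0.12 with iAs. The values are for the whole gene, so transcripts of SLC11A2 with different 3′ ends are not separated.

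SLC40A1 (ENSG00000138449, chr2:189560579-189583758, minus strand) encodes ferroportin, the exporter of cellular iron. It was listed at 0 in 23 of 24 libraries and at 0.00985 FPKM in vector 0 nM week 12 replicate 2. No comparison was made for it.

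The 4 construct comparisons called no member. All genes gave 3.44% and 2.02% called at week 12 without and with iAs, and 2.86% at week 29 without iAs. SLC11A2, FBXL5 and TFRC were lower in miR-186 clones without overlap at week 12 and 0 nM, where 15.1% of all genes were, and SLC11A2 with iAs at that week, where 9.85% were. FBXL5 changed by -0.30 ± 0.20 there and by -0.27 ± 0.20 at week 29 and 0 nM (adjusted p = 0.4 and 0.47 in limma). In the latter, FBXL5 was the 1 member lower without overlap (12.1% of all genes). With iAs the FBXL5 difference was -0.09 ± 0.20 at week 12 and 0.06 ± 0.20 at week 29. FTH1 changed by -0.57 ± 0.33 and TFRC by -0.36 ± 0.19 at week 12 without iAs (adjusted p = 0.348 and 0.301).

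The iAs effects of the members were not shown to differ between constructs or weeks. The 4 tests of a difference between iAs effects called no gene in limma, against 421, 272, 1058 and 439 genes (2.96%, 1.91%, 7.44% and 3.09%) at an unadjusted p under 0.05, and 0 of 8 members reached even that. For FBXL5 the difference between constructs was 0.22 ± 0.28 at week 12 (interval -0.37 to 0.80) and 0.33 ± 0.28 at week 29 (interval -0.25 to 0.92). Between weeks it was -0.08 ± 0.28 in vector and 0.04 ± 0.28 in miR-186 clones. The widest gap among the members was for FTL between weeks in vector clones, at -0.83 ± 0.50 (adjusted p = 0.674).

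NCOA4 was the member called between weeks. In treated miR-186 clones it rose from 79.6, 61.8 and 81.8 FPKM at week 12 to 107, 112 and 102 FPKM at week 29, by 0.53 ± 0.16 (adjusted p = 0.0408 in limma). It was the 1 of 8 members called, where 12.2% of all genes were. With the replicate number as a block, for which same-numbered libraries of this comparison deviated together, ACO1 passed as well (0.65 ± 0.22, adjusted p = 0.0461, against 0.0595 without the block). Higher without overlap were NCOA4, ACO1 and SLC11A2, beside 18% of all genes. With the GC correction NCOA4 stood at 0.32 ± 0.13 (adjusted p = 0.139). It passed in 1 of the 6 fits that leave out 1 of these libraries, the one without miR-186 100 nM week 12 replicate 3. The summed keratinocyte markers of these groups ran from 2749 to 4258 FPKM at week 12 and from 1529 to 2765 FPKM at week 29, and their part in the result was not tested.

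Averaged over constructs and doses, NCOA4 rose by 0.22 ± 0.08 from week 12 to week 29 (adjusted p = 0.0447 in limma), when 30.4% of all genes changed, 16.3% rising and 14.1% falling. ACO1 and FTH1 stood at 0.28 ± 0.11 and 0.41 ± 0.17 and did not pass (adjusted p = 0.0669 and 0.067 in limma). FTH1 passed with the replicate block (adjusted p = 0.0338), with the block within each construct (adjusted p = 0.0309), and with either block and the GC correction (adjusted p = 0.0363 and 0.0333). It also passed without miR-186 0 nM week 12 replicate 3, miR-186 100 nM week 12 replicate 1 or miR-186 0 nM week 29 replicate 2 (0.52, 0.48 and 0.51, adjusted p = 0.0129, 0.0336 and 0.0158). ACO1 passed without vector 100 nM week 12 replicate 2, miR-186 100 nM week 12 replicate 1 or vector 100 nM week 29 replicate 3 (0.31, 0.32 and 0.31, adjusted p = 0.0478, 0.0344 and 0.0480). NCOA4 passed in 9 of the 24 fits with 1 library left out, and not with the GC correction (0.11 ± 0.06, adjusted p = 0.208). Under that correction TFRC passed in its place, at -0.26 ± 0.09 (adjusted p = 0.0325), against -0.12 ± 0.10 without it. FBXL5 differed by 0.02 ± 0.10 between weeks, with an interval of -0.19 to 0.23.

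The other 3 week comparisons called no member, with 0.907%, 0.183% and 2.9% of all genes called in untreated vector, treated vector and untreated miR-186 clones. In untreated vector clones TFRC was lower at week 29 (-0.45 ± 0.19, adjusted p = 0.444 in limma) and FTH1 higher (0.50 ± 0.33, adjusted p = 0.701), both without overlap (10.3% and 7.91% of all genes). In untreated miR-186 clones FTH1 changed by 0.86 ± 0.33 (adjusted p = 0.131). That change passed without miR-186 0 nM week 12 replicate 3 (1.28, adjusted p = 0.0261), a library at 10539 FPKM beside 4865 and 4001. It also passed without miR-186 0 nM week 29 replicate 2 (1.26, adjusted p = 0.0460), a library at 6155 FPKM beside 14929 and 13299.9.

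Partners of FBXL5 and NCOA4 were looked at as a list of 14 genes of the SCF ligase and of ferritin turnover, all tested. On average with iAs, 3 of 14 fell and 0 rose, with a median of -0.19 against 0.015 over all genes (4.67% of all genes fell). RBX1, the RING subunit of SCF ligases, fell by 0.47 ± 0.09 (adjusted p = 0.0227 in limma). NEDD8, the modifier that activates their cullin, fell by 0.37 ± 0.11 (adjusted p = 0.0432), and PIK3C3, a lipid kinase of autophagy, by 0.38 ± 0.11 (adjusted p = 0.0377). With the GC correction RBX1 was the 1 gene of the list called for iAs on average (-0.36 ± 0.08, adjusted p = 0.0443), and without the filter none was. HERC2, a ligase described as acting on NCOA4, had the smallest p between constructs, at 15.02 ± 1.44 FPKM in miR-186 and 9.83 ± 0.463 FPKM in vector clones at 0 nM and week 12 (0.58 ± 0.17, adjusted p = 0.0648). This HERC2 difference passed with the GC correction (0.58 ± 0.14, adjusted p = 0.0198 in limma), and in 0 of 6 fits with 1 of these libraries left out.

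Genes that move iron other than the members, a list of 25 with 15 tested, had 2 rises and 0 falls with iAs on average, with a median of 0.21 against 0.015 over all genes (2.9% of all genes rose and 4.67% fell). SLC25A37, the mitochondrial iron importer mitoferrin, rose by 0.28 ± 0.07 (adjusted p = 0.0299 in limma). PCBP2, an iron chaperone that also binds RNA, rose by 0.21 ± 0.06 (adjusted p = 0.0490). Between weeks 3 of 15 rose and 3 fell, near the 16.3% and 14.1% of all genes, among them the metalloreductases STEAP1 and STEAP2, which rose by 1.17 ± 0.25 and 0.60 ± 0.16 to week 29 (adjusted p = 0.00286 and 0.0087), and the chaperone PCBP1, which fell by 0.42 ± 0.11 (adjusted p = 0.00674). STEAP2 did not pass with the GC correction (0.43, adjusted p = 0.0521).

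Heme genes, 18 of 20 tested, had 1 rise and 1 fall with iAs on average (2.9% of all genes rose and 4.67% fell). Their median was 0.03 against 0.015 over all genes. ALAS1, the first enzyme of heme synthesis, rose by 0.24 ± 0.06 (adjusted p = 0.0312 in limma) and PGRMC1, a heme-binding membrane protein, fell by 0.35 ± 0.08 (adjusted p = 0.0259). In untreated miR-186 clones at week 12, HMOX2, the constitutive heme oxygenase, and PPOX, an enzyme late in heme synthesis, differed from vector clones by -0.62 ± 0.16 and -0.63 ± 0.16 (both adjusted p = 0.0380). Both calls were lost in each of the 6 fits that leave out 1 of these libraries and without the filter (adjusted p = 0.0612 and 0.0584), and that of PPOX with the GC correction (-0.87, adjusted p = 0.0680). Between weeks 4 of 18 heme genes rose and 1 fell, beside 16.3% and 14.1% of all genes. PPOX rose by 0.23 ± 0.08 and ALAD, another enzyme of the pathway, fell by 0.32 ± 0.10 (adjusted p = 0.0403 and 0.0244 in limma). Neither passed without the filter (adjusted p = 0.0744 and 0.0507). With the GC correction PPOX stood at 0.52 (adjusted p = 0.00955) and ALAD at -0.26 (adjusted p = 0.0540), and PPOX passed in 12 of the 24 fits with 1 library left out.

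Genes of iron-sulfur cluster assembly, which also supply the cluster that decides which form ACO1 protein takes, were all tested (27). With iAs on average 1 rose and 2 fell, with a median of -0.03 against 0.015 over all genes (2.9% of all genes rose and 4.67% fell). CIAO3, of the cytosolic assembly machinery, rose by 0.48 ± 0.08 (adjusted p = 0.0170 in limma), while CIAO2A, of the same machinery, and ISCA1, a mitochondrial assembly factor, fell by 0.40 ± 0.10 and 0.27 ± 0.08 (adjusted p = 0.0287 and 0.0424). The CIAO3 value was 0.12 ± 0.10 with the GC correction (adjusted p = 0.609), and no gene of the list was then called.

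Between weeks 9 of the 27 rose and 0 fell, with a median of 0.15 against 0.02 over all genes (16.3% of all genes rose). The mitochondrial chaperones HSPA9 and HSCB and the scaffold ISCU rose by 0.66 ± 0.13, 0.46 ± 0.10 and 0.48 ± 0.10 (adjusted p = 0.00136, 0.00345 and 0.00156 in limma). With the GC correction 8 of the 27 rose and 0 fell, and the share of all genes under that correction is not given here. At 0 nM and week 12 the assembly factors ISCA2 and GLRX5 differed from vector clones by -0.95 ± 0.23 and -0.71 ± 0.18 (adjusted p = 0.0251 and 0.0338). With 1 of these libraries left out ISCA2 passed in 2 of 6 fits and GLRX5 in 1 of 6, and GLRX5 did not pass without the filter (adjusted p = 0.0584).

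Of 6 other messages reported to carry iron-responsive elements, 5 were tested, and 0 were called with iAs on average, beside 7.58% of all genes. Their median was -0.06 against 0.015 over all genes. PFN2, an actin-binding profilin, was lower in untreated miR-186 clones at week 12, at 5.65 ± 1.04 against 15.4 ± 10.9 FPKM (-1.19 ± 0.32, adjusted p = 0.0452 in limma), with a wide spread in vector clones. The call was lost with the GC correction (-1.02, adjusted p = 0.0711), without the filter (adjusted p = 0.0800) and in 4 of 6 fits with 1 library left out. Between weeks CDC14A, a phosphatase, fell by 0.45 ± 0.13 (adjusted p = 0.0157) and CDC42BPA, a kinase, rose by 0.27 ± 0.09 (adjusted p = 0.0325). CDC42BPA did not pass with the GC correction (0.17, adjusted p = 0.137) or without the filter (adjusted p = 0.0633), and passed in 15 of 24 fits with 1 library left out.

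Genes of ferroptosis and lipid peroxide control, 15 of 17 tested, had 1 rise and 1 fall with iAs on average (2.9% of all genes rose and 4.67% fell). Their median was 0.19 against 0.015 over all genes. GCLC, the catalytic subunit for glutathione synthesis, rose by 0.54 ± 0.16 (adjusted p = 0.0418 in limma), and NFE2L2, the factor that drives antioxidant genes including ferritin, fell by 0.25 ± 0.07 (adjusted p = 0.0391). In vector clones at week 12 NFE2L2 went from 185 ± 18.1 to 121 ± 9.05 FPKM (-0.61 ± 0.14, adjusted p = 0.0479). That call was lost in each of the 6 fits without 1 of these libraries, with the GC correction (-0.45, adjusted p = 0.142) and without the filter (adjusted p = 0.0957). Between weeks 5 of 15 rose and 1 fell, beside 16.3% and 14.1% of all genes. PTGS2, the inducible cyclooxygenase, fell by 2.90 ± 0.33 (adjusted p = 6.54e-06), and SLC3A2, of the cystine exchanger, and GCLC rose by 0.79 ± 0.17 and 0.68 ± 0.16 (adjusted p = 0.0027 and 0.00401).

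The iAs calls of these other lists depend on the processing. With the GC correction 111 genes passed on average in place of 1078, and of the genes of these lists named above as rising or falling with iAs on average, RBX1 alone passed. Without the filter CIAO3 alone of them did (adjusted p = 0.0334). With 1 library left out PCBP2 passed in 4, ISCA1 in 7, NFE2L2 and GCLC in 8 each, NEDD8 in 10, PIK3C3 in 12, ALAS1 in 14, SLC25A37 in 16, PGRMC1 and CIAO2A in 19 each, RBX1 in 23 and CIAO3 in 24 of 24 fits.

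Across the 24 libraries some members varied together. These correlations describe libraries that share groups, sequencing run and GC trend, and carry no test. FBXL5 and NCOA4 had a Pearson r of 0.682, FBXL5 and TFRC 0.626, and IREB2 and TFRC 0.647. TFRC and FTL had an r of -0.719, TFRC and FTH1 -0.316, and FTH1 and FTL 0.25. The 3 genes most like FBXL5 among all tested were TMEM59 (0.891), SLC25A24 (0.885) and ANAPC13 (0.874).

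For TFRC they were ASCC3 (0.898), SCP2 (0.876) and TSPAN3 (0.872), and for NCOA4 LDHB (0.926), UQCRB (0.919) and ATP5F1C (0.918). FTH1 was most like its own pseudogene FTH1P20 (0.945), then TBC1D5 (0.918) and the pseudogene FTH1P10 (0.912). SPACA9 (0.861) and CCDC107 (0.851) were among the genes most like FTL. IREB2 was most like POF1B (0.86), MORF4L1 (0.853) and its pseudogene MORF4L1P1 (0.84). SLC11A2 was most like GDE1 (0.866), SFTA1P (0.861) and POLR3GL (0.843), and ACO1 like TRMT6 (0.818), DDAH1 (0.779) and NEK6 (0.778).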

How the data were processed

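RNA was measured in 24 HaCaT libraries, 3 in each of 8 groups. Per the labels' protocols, total RNA was prepared with a mirVana kit and libraries with a TruSeq Stranded mRNA kit, pooled, and read paired-end in a NextSeq run. The submitters' processing notes name STAR 2.6.0c, hg38 and Cuffdiff 2.2.1. The unit of the deposited values is FPKM, used as the authors gave them. The annotation release and strand setting are not given in the sources used here. Symbols exist for 57740 of the 58381 gene IDs. GENCODE release 29 (GRCh38) holds 58261 of them and gave coordinates, UTRs, transcript sequences and GC content.

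The scale of all tests is log2(FPKM + 0.5), over 14228 genes averaging 0.5 FPKM or more over all libraries. limma 3.58.1 (R 4.3.3), with intensity trend and robust moderation, was fitted to all 8 groups, with Benjamini-Hochberg adjustment over all genes tested and a threshold of 0.05. The 18 comparisons are 12 of 2 groups, 2 averages and 4 differences of iAs effects. The procedure was tested on simulated data, but neither the setting nor the outcome is given here, so no result above rests on it. All members are named. Of each other list, up to 3 genes per kind of comparison with the smallest p past the threshold are named, or the 1 with the smallest p where none passed, although not every one of these is printed. The 3 genes most correlated with each member and the 3 highest ferritin pseudogenes are also named. The members and lists were chosen with earlier results of these data known.

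The alternatives tried were pseudocounts of 0.1 and 1, no filter, median ratio scaling, a GC correction, the replicate number as a block, both together, no trend or robust moderation, only the groups compared, each library left out, and, added after the data were seen, a block within each construct. The GC correction subtracts, library by library, a natural spline over gene GC content (5 degrees of freedom, fitted on genes above 1.5 FPKM). It was possible for 14208 genes (99.86%).

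Replicate numbers were taken as pairing libraries where all 3 same-numbered correlations of deviations from group means, across genes, exceeded 0.1. This held in 4 of 12 comparisons, from the data and not the labels: iAs in vector clones at week 29 (0.491, 0.458 and 0.624), construct at 0 nM and week 29 (0.214, 0.227 and 0.198), week in untreated vector (0.307, 0.521 and 0.168) and week in treated miR-186 clones (0.341, 0.413 and 0.385). The mature miR-186 sequence and protein sequences were not used here. A few genes that these rules name are not reported here.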

Additional observations from a re-analysis of the deposited data

How the results depend on the processing

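Of 352 counts of called members under alternatives, 303 equalled or stayed within 1.5 times the reported count, and of 2816 member effects 2731 kept their side of the threshold, 58 lost it, 27 gained it and 0 reversed a call. For the averaged iAs effect, with 3 members called, the count was 1 without the filter, with the GC correction, with the GC correction and replicate block, and with the GC correction and the block within each construct, and 1 to 4 with 1 library left out. In vector clones at week 12, with 0 called, the replicate block gave 1 (FBXL5, adjusted p = 0.0298 in limma) and the block within each construct 2 (FBXL5 and TFRC). For the construct at 0 nM, with 0 called, the replicate block gave 1 at week 12 (SLC11A2, adjusted p = 0.0484), leaving out a library gave 0 to 1 there, and the GC correction with the replicate block gave 1 at week 29 (SLC11A2, -0.31, adjusted p = 0.0485). Between weeks, leaving out a library gave 0 to 1 in untreated miR-186 clones, against 0. In treated miR-186 clones, with 1 called, the count was 0 without the filter, with the GC correction, with it and either block, and with a fit on only these groups, 2 with the replicate block or the block within each construct, and 0 to 1 with a library left out. Averaged over constructs and doses, with 1 called, it was 0 without the filter, with median ratio scaling, and without trend and robust moderation, 2 with the replicate block, with it and the GC correction, and with the block within each construct, 3 with that block and the GC correction, and 0 to 3 with a library left out. The replicate block changed no other member's call in comparisons that the numbers pair, where it moved the count over all genes from 407 to 744 (construct, 0 nM, week 29), 129 to 205 (week, untreated vector) and 1732 to 2978 (week, treated miR-186).

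Over all genes, 197 were called for iAs in vector clones at week 12, 0 to 1428 under alternatives and 0 to 1 with a library left out. For the averaged iAs effect 1078 were called, 24 to 1907 under alternatives and 12 to 3080 with a library left out. The causes were not tested. Of 1491 effects of other named genes under alternatives, 355 lost and 4 gained the threshold and 0 reversed. Sequencing depth is unknown, so what it limits could not be set. Levels near 0, as for SLC40A1, cannot be told from absence, and precision rests on 3 libraries per group.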
